A study of Mus musculus with 18 samples.

Results

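*Apoe* knockout (KO) and wild-type (WT) mice that had received no ethanol were compared in liver across all genes. All 9 pair-fed mice of the 18 in the series were used, namely 5 *Apoe* KO and 4 WT mice, and all 15052 genes with values were described. The mice were female by their labels and 10–12 weeks old. C57BL/6J WT and *Apoe* KO mice were bought as separate lines and are not described as littermates, so genotype and the origin of the line cannot be told apart. After 5 days of acclimation, both pair-fed groups received an isocaloric control liquid diet for 10 days and, on day 11, a gavage of 9 g/kg dextrin maltose, with livers taken 9 h later. The EtOH-fed mice, 4 *Apoe* KO and 5 WT, serve only for comparison and had a diet with 5% ethanol and a gavage of 5 g/kg ethanol. Mice carry the numbers of their labels.

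Apolipoprotein E sits on chylomicron remnants and very-low-density lipoproteins and is a ligand for their uptake by the LDL receptor and related receptors. Hepatocytes are its main source, and macrophages make it as well. Mice without it keep remnant particles in the blood and have high plasma cholesterol. In hepatocytes, cholesterol supply is sensed by SREBP2, which drives cholesterol synthesis genes, and by LXR, which drives cholesterol export and, with SREBP1c, fatty acid synthesis.

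Each value is a read count per gene that the authors scaled to a nearly common total, and changes are given as log2 fold changes of *Apoe* KO over WT on the log2(value + 1) scale with their standard error (SE). Genes were called by limma at an adjusted p-value under 0.05, with Benjamini-Hochberg adjustment over the 15052 genes. Estimated reads on genes ran from 5.60 M (megareads) in WT mouse 1 to 44.3 M in KO mouse 5, with medians of 23.9 M in KO and 14.9 M in WT mice. WT mouse 1 and KO mouse 1, with 5.60 and 8.51 M reads, stood apart on the first and second principal components, with scores of −63.0 and −43.0. *Xist* had values of 15227 to 30379 in the 9 mice. The Y-linked *Ddx3y* had 118, 20, 38, 107 and 4 in KO mice 1 to 5 and 30 to 47 in WT mice. *Eif2s3y*, also Y-linked, had 45, 2, 57, 86 and 10 in KO mice and 31 to 40 in WT mice. The source of these Y-linked reads was not tested. Of the markers that define hepatocytes, *Alb* had 1727863 to 3030524, *Ttr* 145866 to 219270 and *Hnf4a* 12776 to 23401, all with overlapping groups.

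*Apoe* (chromosome 7, 19696109 to 19699188, GRCm38) was lower in all 5 KO mice. Its values were 716777, 798431, 658805 and 694458 in WT mice 1 to 4, and 35484, 11504, 27229, 108651 and 8586 in KO mice 1 to 5. The groups did not overlap, and the log2 fold change was −4.82 (SE 0.53, adjusted p = 0.000502 by limma). The signal that remained ran from 1.20% of the WT mean in KO mouse 5 to 15.2% in KO mouse 4. *Cyp2b9* and *Cyp2b13*, which encode cytochromes P450 of female liver, ranked the 5 KO mice in the same order, with KO mouse 4 at 11.5% and 9.97% of the WT mean and KO mouse 5 at 0.955% and 0.800%. The source of this remaining signal was not tested.

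The genes next to *Apoe* encode apolipoproteins of the same particles. *Apoc1*, *Apoc2* and *Apoc4*, which encode the small exchangeable apolipoproteins C-I, C-II (the activator of lipoprotein lipase) and C-IV, were all lower. *Apoc1* had 43143, 37195, 61925, 53691 and 86215 in KO mice and 104078, 116044, 98761 and 137345 in WT mice, with a log2 fold change of −1.07 (SE 0.21, adjusted p = 0.0233 by limma). *Apoc4* and *Apoc2* had log2 fold changes of −0.80 and −1.10, without overlap between the groups. *Apoc4* had 5516 to 9927 in KO and 10997 to 16398 in WT mice. *Apoc2* had much lower values, 57 to 77 in KO and 111 to 196 in WT mice. *Tomm40*, on the other side of *Apoe*, encodes a pore of the mitochondrial outer membrane and had 1205 to 1305 in KO and 1227 to 1452 in WT mice (−0.07, adjusted p = 0.668 by limma). The calls of the 3 apolipoprotein genes were lost without KO mouse 1, KO mouse 4, WT mouse 2 or WT mouse 4, and that of *Apoc2* also without KO mouse 3 or WT mouse 1.

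Across all genes, 131 were higher and 130 lower in *Apoe* KO mice, together 261 of 15052 (1.73%, with 0.87% higher and 0.864% lower). These shares are the background for each list count below. Changes of more than 2-fold were called in 35 higher (0.233%) and 59 lower genes (0.392%). The groups did not overlap in 1058 genes (7.03%), of which 604 were higher (4.01%) and 454 lower (3.02%), and 233 of the 261 called genes were among them. Before adjustment, 2991 genes had p under 0.05 (19.9%). The log2 fold change had a median of −0.005 in all genes, 0.73 in the higher and −0.96 in the lower genes. These counts moved with single mice: they fell to 35 and 38 without WT mouse 2, to 43 and 48 without WT mouse 4, to 52 and 75 without KO mouse 4 and to 54 and 65 without KO mouse 1, and rose to 362 and 308 without WT mouse 3 and to 227 and 225 without KO mouse 5. Without the 2 mice under 10 M reads, chosen after seeing the data, 30 genes were higher and 36 lower, and 59 of these 66 were among the 261.

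**Figure D1:**
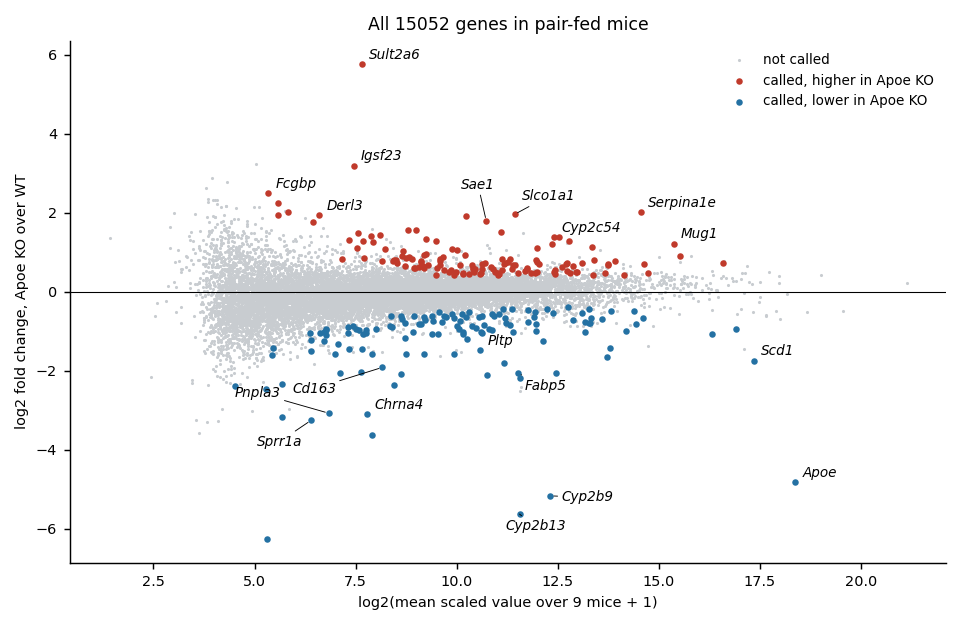
Log2 fold change (*Apoe* KO over WT) against log2 of the mean scaled value over the 9 pair-fed mice, with 1 point per gene and the called genes in red (131 higher) and blue (130 lower). *Apoe*, *Cyp2b9* and *Cyp2b13* lie at −4.82, −5.17 and −5.63, and *Sult2a6* at 5.76 lies above all other called genes.

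The highest fold increases belonged to *Sult2a6*, a hydroxysteroid sulfotransferase gene, and *Igsf23*, an immunoglobulin superfamily gene. *Sult2a6* had 436, 204, 538, 325 and 268 in KO mice against 0, 18, 6 and 10 in WT mice (5.76, SE 0.65, adjusted p = 0.000526 by limma). *Igsf23* had 209, 278, 450, 222 and 285 against 23, 40, 30 and 27 (3.20, SE 0.26, adjusted p = 2.71e-05). Every KO value of both genes lay above every WT value. *Fcgbp*, a mucin-like IgG-binding protein gene, rose by 2.50, *Rnf225* by 2.25, *Gpnmb*, a glycoprotein of lipid-laden macrophages, by 2.03, *Serpina1e*, an α1-antitrypsin paralog, by 2.02, and *Sae1*, a subunit of the SUMO-activating enzyme, by 1.80 on the log2 scale. *Sae1* had 2254 to 2787 in KO and 588 to 798 in WT mice (adjusted p = 2.28e-06 by limma). *Sult2a6*, *Igsf23* and *Sae1* are among the 10 called genes nearest to *Apoe* on chromosome 7, and *Fcgbp* lies on that chromosome too. For such neighbours, loss of *Apoe* and the DNA around it cannot be told apart, as described below. Reads of *Sult2a6*, *Serpina1e* and the *Cyp2b* genes may be split among their close paralogs.

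Below *Apoe*, the P450 genes and predicted genes, the next lower genes by fold were *Sprr1a* (−3.25), a cornified envelope gene, *Cldn18* (−3.16), a tight junction gene, *Chrna4* (−3.09), a nicotinic receptor subunit gene, and *Pnpla3* (−3.07). *Chrna4* had 15, 90, 58, 70 and 38 in KO mice and 259, 393, 415 and 624 in WT mice (SE 0.42, adjusted p = 0.00199 by limma). *Sprr1a* had 23, 6, 5, 24 and 47 against 144, 167, 111 and 222 (SE 0.55, adjusted p = 0.00978). Neither gene had overlapping groups. Among the called genes, the 5 with the highest mean values in each direction were *Mup3*, *Plg*, *Mug1*, *Serpinf2* and *Fmo5* (higher) and *Apoe*, *Scd1*, *Fabp1*, *Apoc1* and *Fads1* (lower). *Mug1*, the protease inhibitor murinoglobulin, had 43731 to 81531 in KO and 19972 to 29770 in WT mice (1.22, SE 0.17, adjusted p = 0.00289 by limma). *Fmo5*, a flavin monooxygenase gene, had 27485 to 33968 against 16395 to 20808, a log2 fold change of 0.70.

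The share of called genes near *Apoe* was above that elsewhere. Within 20 Mb of its start, 29 of 401 genes besides *Apoe* were called (7.23%), 12 higher and 17 lower, against 231 of 14650 elsewhere (1.58%). Within 10 Mb the share was 9.88% (24 of 243), and on chromosome 7 beyond 20 Mb it was 1.55% (12 of 772). The other 19 chromosomes with at least 100 genes ran from 0.226% on X to 2.95% on chromosome 19. Both directions occurred side by side, as in the *Sult2a* cluster about 6 Mb before *Apoe*, where *Sult2a6* and *Sult2a5* rose by 5.76 and 1.29 and *Sult2a2* fell by 2.05. The 2 called *Cyp2b* genes, *Cyp2b13* and *Cyp2b9*, start 6.37 and 6.48 Mb beyond the start of *Apoe*.

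*Cyp2b9* (chromosome 7, 26173411 to 26210661) had 478, 136, 293, 1254 and 104 in KO mice and 9986, 10742, 11946 and 10878 in WT mice (−5.17, SE 0.52, adjusted p = 0.000216 by limma). *Cyp2b13* had 159, 56, 101, 648 and 52 against 3947, 7468, 8633 and 5942 (−5.63, SE 0.56, adjusted p = 0.000189). The KO values of both lay far below all WT values. *Gm29920*, a predicted gene between them, was listed at 0 in all 5 KO mice and at 29, 79, 131 and 106 in WT mice. Further genes of this region were *Hamp2*, a hepcidin paralog (−2.18), *Slc1a5*, a glutamine transporter (−1.45), *Dedd2*, a death effector domain gene (1.08), and *Ppp5c*, a protein phosphatase gene (0.45). *Igsf23* (3.20) and *Sae1* (1.80), given above, belong to it as well. Targeted lines keep DNA of the strain in which the gene was targeted around the altered gene, and such DNA and the loss of *Apoe* cannot be told apart here.

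**Figure D2:**
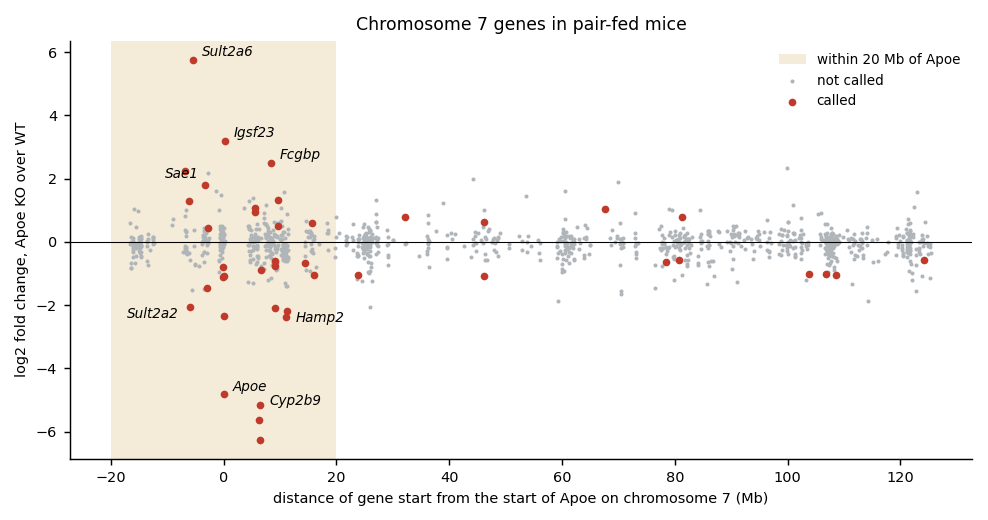
Log2 fold change (*Apoe* KO over WT, pair-fed mice) against the distance of each gene's start from the start of *Apoe* on chromosome 7, in Mb, with called genes in red and 20 Mb on either side shaded. Of the 401 genes in the shaded band besides *Apoe*, 29 were called, against 12 of 772 on the rest of the chromosome.

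Genes of fatty acid synthesis, desaturation and lipid storage were lower in *Apoe* KO liver, where called. Of 39 tested members of this list, 9 were lower and 0 higher, 29 had negative log2 fold changes, and the median was −0.20. *Scd1*, the stearoyl-CoA desaturase that makes oleate, had 50931, 93189, 80163, 132619 and 65140 in KO mice against 275028, 214946, 305205 and 283592 in WT mice (−1.74, SE 0.24, adjusted p = 0.00213 by limma). *Pnpla3*, the lipid droplet acyltransferase and lipase gene whose human counterpart is linked to fatty liver, had 30, 27, 13, 22 and 38 against 282, 280, 171 and 155 (−3.07, SE 0.33, adjusted p = 0.000371). The groups of both genes were well apart.

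*Pnpla5*, the neighbour of *Pnpla3* on chromosome 15, fell by 2.47 on the log2 scale. The fatty acid elongases *Elovl5* (10381 to 15955 in KO, 24312 to 28337 in WT mice) and *Elovl6* (4198 to 7725 and 9481 to 18670) changed by −1.0 and −1.02. *Fabp1* and *Fabp2*, fatty acid binding proteins, changed by −0.93 and −0.82, the desaturase *Fads1* by −0.67 and the carboxylase *Acacb* by −0.64. The first enzymes of the pathway did not pass the test, with log2 fold changes of −0.48 for *Acly*, −0.44 for *Acaca* and −0.78 for *Fasn* (adjusted p = 0.324, 0.206 and 0.0959 by limma). Outside the list, *Fabp5* changed by −2.06 and *Acss2*, which makes acetyl-CoA from acetate, by −1.25 (2319 to 3508 in KO and 5413 to 7936 in WT mice). The calls of *Scd1*, *Pnpla3*, *Elovl5*, *Fabp2* and *Acss2* held with each mouse left out, and 4 to 10 members of the list were lower with 1 mouse left out.

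**Figure D3:**
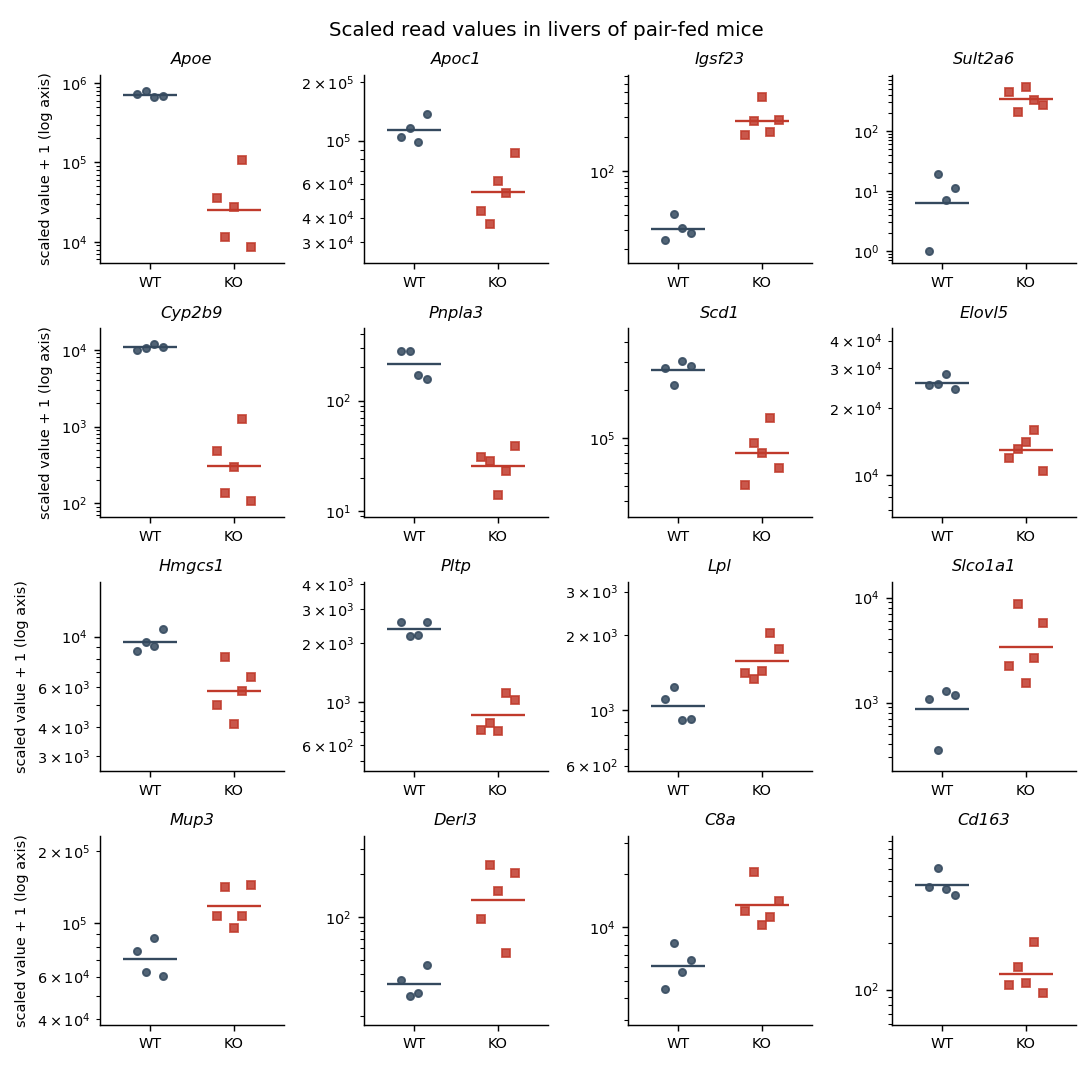
Scaled value + 1 (log axes) of 16 genes in the livers of the 4 pair-fed WT (circles) and 5 pair-fed *Apoe* KO mice (squares), with 1 point per mouse and lines at the mean on the log scale. The groups did not overlap in any of these genes, and *Apoe* and *Cyp2b9* show KO mouse 4 highest and KO mouse 5 lowest.

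Cholesterol synthesis genes that were called were lower as well. Of 28 genes, 4 were lower and 0 higher, 24 had negative log2 fold changes, and the median was −0.29. *Hmgcs1*, the synthase that starts the mevalonate pathway, had 5005, 8104, 4128, 5755 and 6631 in KO mice against 8666, 9498, 9129 and 10819 in WT mice (−0.72, SE 0.16, adjusted p = 0.0367 by limma). *Acat2*, a thiolase, had 1680 to 2193 against 2803 to 3158 (−0.65, SE 0.10, adjusted p = 0.00416). The groups of both were apart, and the call of *Acat2* held with each mouse left out, while that of *Hmgcs1* was lost without KO mouse 1, 3 or 4 or WT mouse 1, 2 or 4. The late enzymes *Dhcr7* (−0.57, with overlapping groups) and *Tm7sf2* (−0.50) were also lower. Without the 2 mice under 10 M reads, no gene of this list was called and its median was −0.24.

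The 250 bases before the start of *Hmgcs1* are shown because this promoter holds letters like those of the sterol regulatory element, to which SREBP proteins bind. The match to TCACNCCAC, where N is any base, is in capitals and begins 137 bases before the start (RefSeq, GRCm38.p6).
Hmgcs1 (chr13:119690101-119690350, + strand): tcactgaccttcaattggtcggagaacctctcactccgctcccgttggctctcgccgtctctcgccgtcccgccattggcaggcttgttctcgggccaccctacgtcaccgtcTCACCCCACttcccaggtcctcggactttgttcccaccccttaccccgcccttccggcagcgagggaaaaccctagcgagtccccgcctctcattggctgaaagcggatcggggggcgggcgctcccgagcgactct
These letters, searched on both strands in the window from 250 bases before to 50 after the start, occur in 1.44% of the 27025 genes with a promoter sequence. Among the cholesterol synthesis genes 1 of 20 with a promoter sequence holds them, which is *Hmgcs1*, and among the called lower genes 5 of 94 do (5.32%), against 0 of 98 called higher genes. Of these 5, only *Hmgcs1* is on the cholesterol synthesis list, and *Pkm* and *Ucp2* are among the others. The letters were searched after the called genes were known, and binding was not tested.

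Of 17 LXR targets, 2 were higher and 2 lower, with a median of 0.12. *Abca1*, which exports cholesterol to HDL, had 4218 to 5110 in KO and 2991 to 3313 in WT mice (0.49, SE 0.09, adjusted p = 0.0126 by limma). The other called members were *Npc1*, which exports cholesterol from lysosomes (0.67), and *Scd1* and *Pltp*, both lower. *Pltp*, the phospholipid transfer protein of plasma, had 713, 777, 708, 1112 and 1025 in KO mice and 2564, 2185, 2196 and 2552 in WT mice (−1.47, SE 0.14, adjusted p = 0.000154). Its call held with each mouse left out, while that of *Abca1* was lost without WT mouse 2 and that of *Npc1* with 7 of the 9 mice left out in turn. The list had 0 to 3 higher members with 1 mouse left out and 0 without the 2 mice under 10 M reads, and 2 lower members in each case. *Abcg5* and *Abcg8*, the sterol exporter of the bile canaliculus, did not pass the test (0.29 and 0.33, adjusted p = 0.212 and 0.285 by limma). Among 35 lipoprotein genes, 1 was higher and 5 lower. The higher one was *Lpl*, lipoprotein lipase (0.61), whose call was lost without any 1 mouse but KO mouse 2. The lower ones were *Apoc1*, *Apoc2*, *Apoc4*, *Pltp* and *Apobr*, a receptor for apolipoprotein B48, at −1.01, whose call was lost with 6 of the 9 mice left out in turn. With 1 mouse left out, 0 to 5 lipoprotein genes were higher and 1 to 6 lower, and without the 2 mice under 10 M reads 0 and 1. Among 38 fatty acid oxidation genes only the uncoupling protein gene *Ucp2* was called (−0.56), and the median of the list was −0.02. This list does not hold every gene of fatty acid use. *Ech1*, *Etfb*, *Hacl1*, *Crat* and *Acsl5*, outside it, were called lower, and genes outside it were not counted in either direction.

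Several genes with a female bias in mouse liver were lower. Of 31 female-biased genes tested, 6 were lower, 2 higher, and the median was −0.74. *Cyp2b9*, *Cyp2b13*, *Sult2a2*, *Hao2* (a hydroxyacid oxidase), *Cyp17a1* (steroid 17-hydroxylase) and *Cyp3a44* were lower, and *Sult2a6* and *Sult2a5* higher. *Hao2* had 292, 162, 523, 297 and 341 in KO mice against 801, 1132, 804 and 918 in WT mice (−1.58, SE 0.25, adjusted p = 0.00594 by limma). Of these 8 genes, 5 lie within 20 Mb of *Apoe*, and *Cyp17a1* (−0.99, 2007 to 3632 in KO and 4756 to 6241 in WT mice), *Hao2* and *Cyp3a44* (−1.81) do not. With 1 mouse left out, 1 to 2 members were higher and 5 to 8 lower, and without the 2 mice under 10 M reads 1 and 4.

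Of 25 male-biased and growth hormone related genes, 2 were higher and 0 lower, with 20 positive and a median of 0.30. They were *Susd4*, a complement inhibitor gene (1.28), and *Slco1a1*. *Slco1a1*, an organic anion transporter of male liver, had 2248, 8756, 1521, 2647 and 5729 in KO mice against 1083, 356, 1276 and 1172 in WT mice (1.96, SE 0.46, adjusted p = 0.0494 by limma). The groups did not overlap, but the call was lost with any mouse but KO mouse 3 or WT mouse 3 left out. The list had 0 to 4 higher members with 1 mouse left out and 0 without the 2 mice under 10 M reads. Over all genes 0.87% were higher. The major urinary proteins, pheromone carriers under growth hormone control, all had positive log2 fold changes (19 of 19, median 0.83, range 0.33 to 1.39), and 4 were called higher, *Mup3*, *Mup19*, *Mup20* and *Mup21*. *Mup3* had 107173, 142211, 95865, 106954 and 144261 against 76633, 62579, 87191 and 60488 (0.73, SE 0.17, adjusted p = 0.0485). The *Mup* genes are near-identical copies that share reads, so their 19 values are not independent, and 0 to 7 were called with 1 mouse left out.

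Among 52 P450 genes of families 1 to 3, 4 were higher and 4 lower. *Cyp2c54* rose from 2605 to 3495 in WT mice to 6678 to 8083 in KO mice (1.39, SE 0.10, adjusted p = 1.77e-05 by limma), with *Cyp2c50* (0.79), its neighbour on chromosome 19, and *Cyp2c23* (0.73) also higher. *Cyp1a2*, the pericentral caffeine oxidase, had 13859 to 21014 in KO and 8908 to 11348 in WT mice (0.70). All 4 had non-overlapping groups, and the calls of the 3 *Cyp2c* genes held with each mouse left out. The 4 lower ones were *Cyp2b9*, *Cyp2b13*, *Cyp3a44* and the pseudogene *Cyp3a63-ps* (−2.06). Of 54 conjugating enzymes, 3 were higher (*Sult2a6*, *Sult2a5* and *Ugt1a9*, a glucuronosyltransferase, at 1.92 with overlapping groups) and 3 lower (*Sult2a2*, *Gstm2* at −0.97 and *Gstp3* at −0.51, both glutathione transferases). Over all genes 0.87% were higher and 0.864% lower. With 1 mouse left out, 1 to 7 conjugating enzymes were higher and 2 to 4 lower, and the call of *Ugt1a9* was lost with 5 of the 9 mice. The P450 counts were then 3 to 6 and 3 to 5. Among 24 bile acid genes only *Slco1a1* was called, and *Cyp7a1*, the rate-limiting enzyme of bile acid synthesis, was at −0.34 (adjusted p = 0.112 by limma).

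Called genes of protein folding and degradation in the endoplasmic reticulum (ER) were higher. Of 38 tested, 4 were higher and 0 lower, 36 had positive log2 fold changes, and the median was 0.28. *Derl3*, a channel component for the export of misfolded proteins, had 95, 229, 151, 55 and 201 in KO mice against 35, 27, 28 and 45 in WT mice (1.94, SE 0.38, adjusted p = 0.0208 by limma). *Pdia6*, a disulfide isomerase, had 7208 to 9751 against 4752 to 5815 (0.54, SE 0.11, adjusted p = 0.0233). The groups of both were apart, and the call of *Derl3* was lost without WT mouse 2 and that of *Pdia6* without WT mouse 2 or 4. *Herpud1* and *Os9*, which act in ER-associated degradation, rose by 0.47 and 0.50. *Hspa5* (BiP), the main ER chaperone, did not pass the test at 0.49 (adjusted p = 0.213 by limma). Between 0 and 5 members were higher with 1 mouse left out, and 0 without the 2 mice under 10 M reads, with a median of 0.30 there.

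The 250 bases before the starts of *Derl3* and *Pdia6* are shown because both hold an ER stress response element, a CCAAT box and a CCACG box 9 bases apart to which NF-Y and ATF6 bind. The match, CCAAT and CCACG with any 9 bases between, is in capitals, on the opposite strand in *Derl3* (so that it reads reversed) and on the strand of the gene in *Pdia6*, and begins 156 and 98 bases before the start (RefSeq, GRCm38.p6).
Derl3 (chr10:75893148-75893397, + strand): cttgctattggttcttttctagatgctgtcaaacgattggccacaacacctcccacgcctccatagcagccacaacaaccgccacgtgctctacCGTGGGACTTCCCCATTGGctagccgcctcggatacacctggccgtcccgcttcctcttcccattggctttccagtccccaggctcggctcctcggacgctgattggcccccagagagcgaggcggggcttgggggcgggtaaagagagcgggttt
Pdia6 (chr12:17266339-17266588, + strand): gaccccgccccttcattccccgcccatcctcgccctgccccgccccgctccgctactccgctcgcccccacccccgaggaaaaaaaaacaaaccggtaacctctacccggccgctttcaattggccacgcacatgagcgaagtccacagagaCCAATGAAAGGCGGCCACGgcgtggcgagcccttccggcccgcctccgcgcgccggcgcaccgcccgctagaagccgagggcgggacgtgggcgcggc
On both strands of the 300-base promoter windows, this element occurs in 37 of 27025 genes (0.137%) and in 9 of the 29 ER genes that have a promoter sequence. All 9, *Calr*, *Canx*, *Creld2*, *Derl3*, *Dnajc3*, *Hsp90b1*, *Hspa5*, *Pdia6* and *Syvn1*, had positive log2 fold changes, with a median of 0.33 against 0.30 in the 20 others. Of the called higher genes 2 of 98 hold it, and of the called lower genes 1 of 94, which is *Acacb*.

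Complement and coagulation proteins made by hepatocytes were higher in 7 of 39 genes and lower in 0, with a median of 0.34. *C8a* and *C8b*, adjacent genes for chains of the terminal complement complex, had 10244 to 20418 and 3895 to 7946 in KO against 4523 to 8110 and 2095 to 2693 in WT mice (1.14 and 1.11, SE 0.19 and 0.16, adjusted p = 0.00998 and 0.00373 by limma). *C9*, of the same complex, rose by 0.73, *Plg* (plasminogen) by 0.92, *F13b* by 0.64, *Serpinf2* (α2-antiplasmin) by 0.47 and *C1s1* by 0.43. The calls of *C8a*, *C8b* and *C9* held with each mouse left out, and 3 to 12 members of the list were then called higher. Of 32 acute phase genes, 2 were higher and 0 lower, 29 were positive, and the median was 0.47. *Lbp*, the lipopolysaccharide binding protein, had 5445, 4490, 5191, 4848 and 4712 in KO against 2772, 3363, 2840 and 2780 in WT mice (0.75, SE 0.09, adjusted p = 0.000934), and *Crp* rose by 0.69. With 1 mouse left out, 2 to 6 acute phase genes were higher. Without the 2 mice under 10 M reads, 2 complement and coagulation genes and 1 acute phase gene were higher.

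Of 27 lysosome genes, 5 were higher and 0 lower, with 24 positive and a median of 0.30. Among them were *Gpnmb*, *Npc1* and the hexosaminidase subunit *Hexa*. *Hexa* had 2085 to 2610 in KO and 1625 to 1942 in WT mice (0.44, SE 0.10, adjusted p = 0.041 by limma), and *Npc1* (0.67) had overlapping groups. No call of this list held with each mouse left out, and 0 to 7 members were higher then.

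Few members of the stress and feeding lists passed the test. The kinase-like *Trib3* rose by 1.44 as the only 1 of 21 integrated stress response genes, the glycogen targeting subunit *Ppp1r3c* (645 to 1058 in KO, 250 to 396 in WT mice) by 1.35 and *Igfbp1*, an insulin-repressed binding protein (with overlapping groups), by 1.29 as 2 of 25 glucose and insulin genes. *Gadd45g* (2058 to 4332 against 735 to 1427) and *Jun* rose by 1.52 and 0.83 as 2 of 21 immediate early genes. *Gclc* (0.65) was the only 1 of 29 antioxidant genes, *Hspb1* (0.83) of 23 heat shock genes, *Ifi44* (0.82) of 46 interferon genes and *Cyp1a2* of 20 pericentral genes. *Hamp2* was the only 1 of 18 iron genes and *Acss2* of 14 alcohol oxidation genes, both lower. Of all genes 1.73% were called, so 1 call says little about a list. Calls were lost with 7 mice left out in turn for *Igfbp1*, 4 for *Gclc*, 3 for *Hspb1* and 2 for *Trib3*. Those of *Ifi44* and *Cyp1a2* were lost without WT mouse 2, and the others held with each mouse left out. Without the 2 mice under 10 M reads, the glucose and immediate early lists each had 2 higher members. The iron and alcohol oxidation lists then had 1 lower member each, and the others none.

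Some markers of sinusoidal endothelium were lower. Of 20, 4 were lower and 0 higher, 19 had negative log2 fold changes, and the median was −0.46. The summed values of the list were 8787 to 13360 in KO and 14734 to 15910 in WT mice. *Flt4* (VEGF receptor 3) had 478, 351, 355, 464 and 433 in KO against 784, 645, 692 and 820 in WT mice (−0.83, SE 0.13, adjusted p = 0.00684 by limma), *Clec4g* was at −0.66, *Bmp2* at −0.68 and *Fcgr2b* at −0.63. *Flt4* and *Clec4g* held with each mouse left out, when 2 to 5 markers were lower, and without the 2 mice under 10 M reads 1 was. In bulk liver, fewer cells of a type and less RNA per cell cannot be told apart.

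Of 17 Kupffer cell markers, 2 were lower and 0 higher, with a median of −0.27. *Cd163*, the hemoglobin-haptoglobin scavenger receptor, had 106, 138, 109, 203 and 94 in KO mice against 455, 609, 446 and 405 in WT mice (−1.91, SE 0.22, adjusted p = 0.000541 by limma), and its call held with each mouse left out. The other was *Paqr9* (−0.50), whose call was lost with 5 of the 9 mice left out in turn, and 1 to 3 markers were lower with 1 mouse left out. *Paqr9* had 15564 to 20114 in KO and 24795 to 26069 in WT mice, above every value of *Clec4f*. In EtOH-fed mice it was called lower (−0.79), while 13 of the 17 markers were called higher. Which liver cells its reads come from was not tested. The defining markers *Clec4f* (2490 to 4441 in KO, 3492 to 5573 in WT mice), *Vsig4* and *Timd4* did not pass the test, with log2 fold changes of −0.55, −0.27 and −0.23. Of 22 infiltrating macrophage genes, 14 had negative log2 fold changes, with a median of −0.16. Higher were *Gpnmb* and *Lpl* and lower was *Fabp5*, and with 1 mouse left out 0 to 1 were higher and 0 to 2 lower. None was called without the 2 mice under 10 M reads. Of 39 stellate cell and matrix genes, *Vim* (−0.94, with overlapping groups) and *Col15a1* (−0.79) were lower, and 0 to 3 were with 1 mouse left out. Over all genes 0.864% were lower, so so few calls say little about these cells.

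All 23 lymphocyte markers tested had negative log2 fold changes, with a median of −1.02, and none passed the test (lowest adjusted p = 0.0737 by limma, for *Trac*). Their summed values were 1007 to 2266 in KO and 1999 to 5778 in WT mice and overlapped. *Cd79a* of B cells had 15, 24, 65, 60 and 39 in KO against 92, 119, 62 and 94 in WT mice (−1.31, adjusted p = 0.109), and *Cd3e* of T cells had 13 to 30 against 18 to 47 (−0.70). The sign was negative in 23 of 23 with any mouse left out, and 0 to 3 members were then called. The markers belong to the same cells and are not independent of each other. Outside this list, the chemokine receptor gene *Cxcr6* and an immunoglobulin heavy chain gene were called lower, and other genes outside it were not counted.

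Most genes of the cytosolic ribosome and the respiratory chain had small negative log2 fold changes. Of 86 cytosolic ribosome genes, 78 were negative with a median of −0.32, and *Rpl19* was called (−0.54, with overlapping groups). Of 98 respiratory chain genes, 78 were negative with a median of −0.26, and *Ndufb9* (−0.79), *Atp5po* (−0.93) and *Cox7a2* (−0.45) were lower. No call of these lists held with each mouse left out, and 0.864% of all genes were called lower. Length was taken as all annotated exons of a gene merged, which is not the length of 1 transcript. Among genes with a mean value of at least 50, the log2 fold change had a median of −0.08 in the 2475 shortest by this measure. It was 0.02, 0.04, 0.04 and 0.02 in the 4 groups of longer ones, in order of length. The group of shortest genes holds 55 of the 86 ribosome and 71 of the 98 respiratory chain genes. The mean log2 value of the shortest group minus that of the longest was −0.53 to −0.28 in KO and −0.35 to −0.21 in WT mice, and the part of length in these lists was not tested.

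In 13 of the 43 lists no member was called. These were antigen presentation (median −0.15), neutrophil (−0.22), lymphocyte, biliary (0.12), hepatocyte (0.25), periportal (0.40, with 14 of 15 positive), clock (0.16), amino acid and urea cycle (0.27, with 29 of 35 positive), cell cycle (−0.38, with 21 of 26 negative), inflammatory signalling (0.05), red blood cell (−0.75, 5 genes), exocrine pancreas (1 gene, 0.32) and adipocyte (1 gene, 0.18). Of the defining markers of pancreas and fat, *Prss2*, *Cela3b* and *Adipoq* are not among the 15052 genes. Over all genes, 7422 were positive and 7630 negative.

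**Figure D4:**
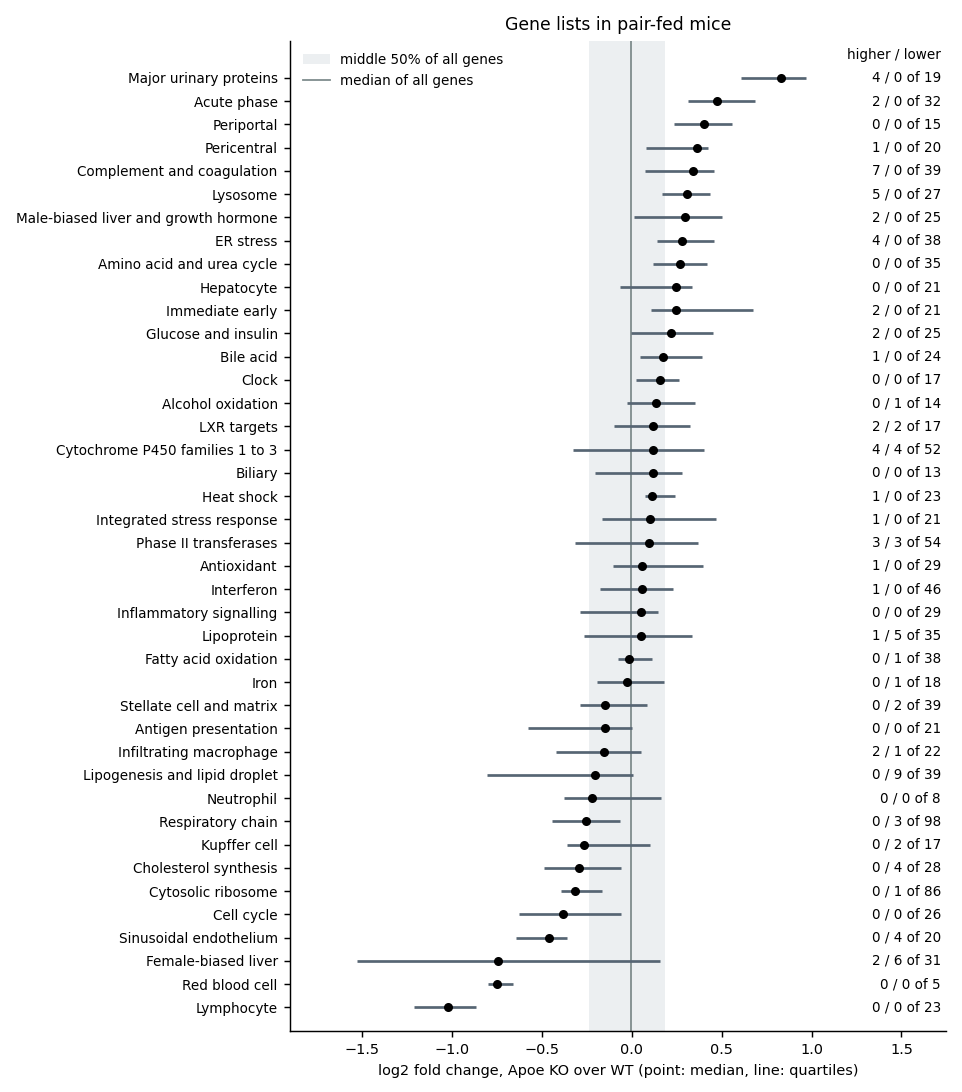
Median (point) and quartiles (line) of the log2 fold change, *Apoe* KO over WT in pair-fed mice, for 41 gene lists with at least 5 genes tested, with the number of members called higher and lower at the right and the middle 50% of all genes shaded. The major urinary proteins lie highest at 0.83, and the lymphocyte markers lowest at −1.02.

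The same genes were then read in the EtOH-fed mice, which share no animal with the pair-fed groups. There, 706 genes were called between *Apoe* KO and WT mice (4.69%), 639 higher (4.25%) and 67 lower (0.445%), and the median log2 fold change of all genes was 0.11. Of the 260 genes called in pair-fed mice besides *Apoe*, 196 had the same sign in EtOH-fed mice (75.4%), 38 of these were called there too, and 10 were called with the opposite sign. The sign was the same in 113 of 131 higher genes (86.3%) and in 83 of 129 lower genes (64.3%). All 10 opposite calls were among the lower genes. All 29 genes within 20 Mb of *Apoe* kept their sign and 20 of them were called, against 167 of 231 genes elsewhere (72.3%), of which 18 were called. The median size of the log2 fold change near *Apoe* was 1.32 in pair-fed and 1.34 in EtOH-fed mice. Elsewhere it was 0.79 and 0.30. The genes were chosen by their pair-fed values, which favours large sizes there, so these medians do not measure an effect of diet.

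The interaction of diet and genotype was called in 428 of all genes (2.84%), with 392 differences higher in EtOH-fed mice (2.6%) and 36 lower (0.239%), and in 42 of these 260, which is not independent of their choice, since the pair-fed mice enter both tests. Among the 42, 36 had opposite signs in the 2 diets. *Pltp* was lower in KO mice when pair-fed but higher when EtOH-fed, with 1298, 919, 1101 and 1146 in EtOH-fed KO and 547, 627, 436, 613 and 566 in EtOH-fed WT mice (log2 fold change 1.0, interaction adjusted p = 1.07e-06 by limma). *Sprr1a* changed by −3.25 in pair-fed and 2.78 in EtOH-fed mice (interaction adjusted p = 0.000721). *Vim*, *Pkm*, *Fbln2*, *Dpysl3*, *Hk1*, *Ly6a*, *Ucp2* and *Apobr* likewise were lower in pair-fed KO mice and had positive log2 fold changes of 0.89 to 1.76 in EtOH-fed mice. *Igsf23* was higher in both, by 3.20 and 4.70. *Acss2* was at −1.25 and −0.13 and *Cd163* at −1.91 and −0.24, both with a called interaction.

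**Figure D5:**
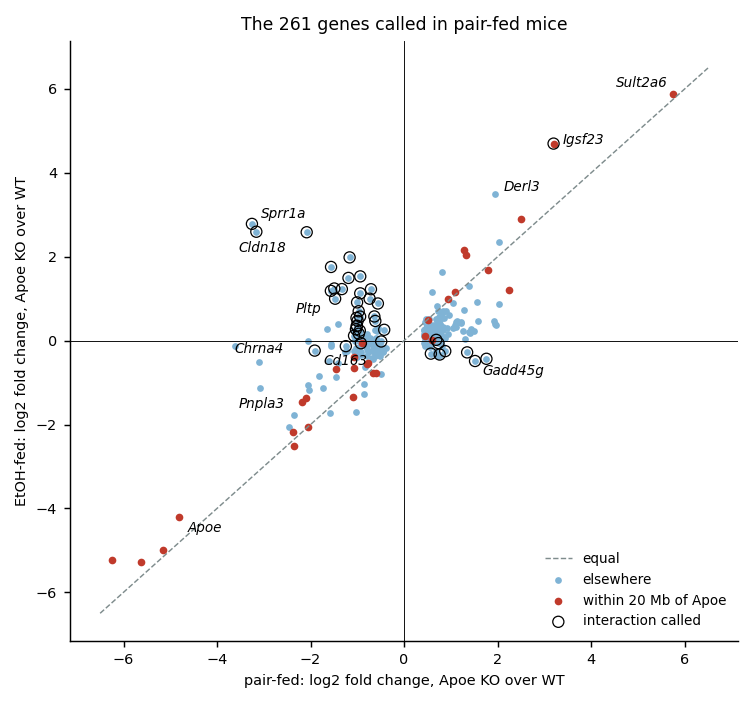
Log2 fold change (*Apoe* KO over WT) in EtOH-fed mice against that in pair-fed mice for the 261 genes called in pair-fed mice, with genes within 20 Mb of *Apoe* in red, other genes in blue and genes with a called interaction circled. The red points have the same sign in both diets, with *Igsf23* (3.20 and 4.70) and *Sult2a5* (1.29 and 2.17) off the line of equal values, and *Pltp*, *Sprr1a* and *Cldn18* lie above 0 in EtOH-fed mice only.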

How the data were processed

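Liver RNA of 18 mice was analysed, and the 9 pair-fed mice were compared. RNA was poly(A)-selected, and per the submitters' processing notes and the methods, reads were trimmed with Trimmomatic, aligned with HISAT2 to GRCm38 and counted with featureCounts. The authors deposited 1 table with a signal for every mouse, made by scaling the read count of a gene to totals that differ by 0.0614% between the pair-fed mice and rounded. Its further columns hold the authors' own fold changes, p-values and ranks and were not used. Genes on several lines were used once (15247 lines, 15052 genes, lowest mean 11.8), so genes below that level are not described. Of these, 15040 were placed in GENCODE release M21.

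Values were tested as log2(value + 1) with limma 3.58.1 (R 4.3.3), using the intensity trend and only the mice compared. The interaction was fitted on all 18 mice. All genes were tested. The scaling step is not given in the sources used here, and count tests were not used because the values are scaled. Depth was estimated from the steps between low values, and 1 read stands for 0.729 to 5.76 units in the pair-fed mice, so differences of a few units were not detectable. Whole reads could not be recovered in all mice, and a voom fit on estimated reads was an alternative. Tested on simulated data for the pair-fed comparison (15052 genes), the fit called 37 of 100 genes changed 2-fold and 100 of 100 changed 4-fold, with 5 unchanged genes called. The simulation gave every gene the same dispersion of 0.08 and held no outlying mouse, so these rates need not hold for the real mice.

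The labels give each mouse its group and number, and nothing says that same-numbered mice are paired. The members and the 43 gene lists were chosen with earlier results of these data known. Named were *Apoe*, the 10 largest called changes in each direction without overlap between groups, the 5 called genes of highest mean in each direction, called members of the lists with up to 3 uncalled ones in list order, the 10 called genes nearest to *Apoe* with its cluster, and up to 10 called genes with an interaction adjusted p-value under 0.05. *Trac*, *Xist*, *Ddx3y*, *Eif2s3y*, the 9 promoter genes and the defining cell markers were named besides. So were *Ech1*, *Etfb*, *Hacl1*, *Crat*, *Acsl5* and *Cxcr6*, which are called genes outside the lists. Alternatives were median-of-ratios scaling, a mean of at least 50, pseudocounts of 0.1 and 10, all 18 mice, quality weights, a block for the mouse number, voom, leaving out each mouse, and, after seeing the data, leaving out both mice under 10 M reads. Merged exon lengths and promoter matches were also looked at after seeing the data. Figures were drawn with matplotlib 3.10.9 in Python 3.11.15. Some genes of the lists are counted but not reported here by name.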

Additional observations from a re-analysis of the deposited data

Results flagged for a closer look

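In 253 groups of values (127 measures in the 5 KO and in the 4 WT mice, namely log2 values of named genes and 3 principal components), 14 had a mouse far from the others of its group by Dixon's criterion, where chance gives about 13. KO mouse 1 had the lowest value of PC2, with a gap of 0.879 of its group's range. KO mouse 2 had the lowest value of *Ppp5c*, with a gap of 0.794 of its group's range. KO mouse 3 had the lowest value of *Fcgr2b*, with a gap of 0.839 of its group's range. KO mouse 5 had the lowest value of *Plg*, *Acacb*, *F13b*, *Cyp2c50* and *Ugt1a9*, with a gap of 0.759, 0.733, 0.714, 0.751 and 0.785 of its group's range. KO mouse 5 had the highest value of *Clec4f*, with a gap of 0.734 of its group's range. WT mouse 1 had the lowest value of PC1, with a gap of 0.934 of its group's range. WT mouse 1 had the highest value of *Igfbp1*, with a gap of 0.877 of its group's range. WT mouse 2 had the lowest value of *Slco1a1*, with a gap of 0.871 of its group's range. WT mouse 2 had the highest value of *Lbp*, with a gap of 0.875 of its group's range. WT mouse 3 had the highest value of *Cyp2c54*, with a gap of 0.862 of its group's range.

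The difference between *Apoe* KO and WT mice was not the same in both diets in 22 named genes, by limma's interaction term with an adjusted p-value under 0.05. The log2 fold change was higher in EtOH-fed than in pair-fed mice for *Sprr1a* 6.04, *Cldn18* 5.76, *Fbln2* 3.32, *Dpysl3* 2.75, *Pkm* 2.68, *Pltp* 2.47, *Vim* 2.47, *Hk1* 2.06, *Ly6a* 1.93, *Apobr* 1.92, *Cd163* 1.67, *Clec4f* 1.67, *Igsf23* 1.5, *Cyp17a1* 1.47, *Ucp2* 1.45, *Acacb* 1.21, *Gstm2* 1.13 and *Acss2* 1.11. It was lower in EtOH-fed mice for *Crp* −0.67, *Cyp2c23* −0.79, *Ppp1r3c* −1.63 and *Gadd45g* −2.0. Pair-fed mice also chose these genes, so the count is not independent of the choice.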

How the results depend on the processing

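The log2 fold change of *Apoe* kept its direction and its call under every alternative run, from −5.35 to −4.43 with 1 mouse left out and −4.94 without both mice under 10 M reads. The counts of higher and lower genes stayed within 1.5 times of 131 and 130 under median-of-ratios scaling, a mean of at least 50, pseudocounts of 0.1 and 10, all 18 mice and voom on estimated reads. Quality weights gave 272 higher genes. With the mouse number as a block, 189 genes were higher and 203 lower, 657 had a called interaction and 1083 were called in EtOH-fed mice. The labels do not say that mouse numbers pair the mice. Deviations of same-numbered mice correlated at 0.0152 on average in pair-fed mice (−0.0508 to 0.0706, other pairs −0.00358) and at 0.135 in EtOH-fed mice (−0.0242 to 0.230, other pairs −0.0327). With 1 mouse left out, higher genes numbered 35 to 362, lower genes 38 to 308, interactions 167 to 561 and calls in EtOH-fed mice 327 to 620. Without both mice under 10 M reads, which leaves 4 against 3, higher and lower genes numbered 30 and 36. The share of genes called within 10 Mb of *Apoe* was 9.88%, against 7.23% within 20 Mb. Of 106 called genes besides *Apoe* that the naming rules chose, 59 kept their call under all alternatives with all mice, 40 with each mouse left out, and 0 changed sign. *Timd4*, not called, ran from −0.63 to 0.16 with 1 mouse left out and was positive without WT mouse 4. The depth of 5.60 M reads in WT mouse 1 limits low genes in that mouse.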
